A study of Homo sapiens with 45 samples.

Results

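The E2F family of transcription factors and their DNA-binding partners were examined in A375 cells, an established human melanoma line. The members were E2F1 to E2F8, TFDP1 and TFDP2, taken by name: 10 of the 19775 genes named on the array, read by 22 of its 54675 probe sets. Each gene was represented by its main probe set, the one with the highest mean log2 intensity over all arrays, and the other 12 probe sets are given where they bear on a result. The 45 Affymetrix U133 Plus 2.0 arrays held RNA from 39 cultures that each received an siRNA pool against a different gene, 3 cultures that received a control siRNA and 3 untreated cultures. RNA was taken 48 h after transfection in the presence of 10% FBS, and the sample labels give 100 nM siRNA, whereas the methods of the study give a lower concentration. The siRNA arrays were made in batches named KD1 (9 arrays), KD2 (23 arrays) and KD3 (7 arrays), and no batch is stated for the arrays of control siRNA and untreated cells, so none was assigned to them. None of the siRNAs analysed here was directed against a member, so the question was how the mRNA of each member stood after knockdown of the other regulators.

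E2F proteins bind the promoters of genes needed for DNA replication and entry into S phase. E2F1, E2F2 and E2F3 are activators that the retinoblastoma protein RB1 holds inactive until cyclin-dependent kinases phosphorylate it, E2F4 and E2F5 mostly act as repressors with the RB1 relatives RBL1 and RBL2, and E2F6 represses through Polycomb proteins without binding RB1. These factors bind DNA as dimers with TFDP1 or TFDP2, whereas the atypical repressors E2F7 and E2F8 carry their own pair of DNA-binding domains, need no TFDP partner and are themselves induced as cells enter S phase. In melanoma cells with mutant BRAF, this kinase drives MAP2K1 (the kinase MEK1) and ERK, which act on this pathway through cyclin D.

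Because several E2F genes are known targets of E2F proteins, their promoters were searched for the E2F recognition word. The search used TTTCCCGC, TTTCGCGC, TTTGCCGC and TTTGGCGC on both strands, in RefSeq windows of 300 bases that run from 250 bases before a gene's start to 50 bases after it (GRCh38.p14). A window was held for 8 of the 10 members, with 11 windows in all, and 4 of these members had the word, each in 1 window. Of all 35116 windows, 1164 (3.31%) had it. The stretches that hold the word lie upstream of the gene's start and are shown 5′ to 3′ on the gene's strand, with the word or its reverse complement in capitals. They are all the stretches found in the members, and come from windows of the 3 activators and of the partner TFDP1.
E2F1, chr20:33686386-33686444, minus strand: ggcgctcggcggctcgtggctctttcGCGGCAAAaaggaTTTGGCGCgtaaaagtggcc
E2F2, chr1:23531242-23531301, minus strand: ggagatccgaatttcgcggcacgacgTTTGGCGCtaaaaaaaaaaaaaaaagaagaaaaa
E2F3, chr6:20401800-20401859, plus strand: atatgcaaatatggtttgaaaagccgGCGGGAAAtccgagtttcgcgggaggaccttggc
TFDP1, chr13:113584607-113584666, plus strand: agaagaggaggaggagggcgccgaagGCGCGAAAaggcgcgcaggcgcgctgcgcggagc
E2F1 had 2 words, TTTGCCGC on the opposite strand and TTTGGCGC on its own strand, beginning 33 and 20 bases before the start. The E2F2 word was TTTGGCGC, 42 bases before the start, that of E2F3 was TTTCCCGC on the opposite strand, 53 bases before it, and that of TFDP1 was TTTCGCGC on the opposite strand, 120 bases before it. These letters were not in the windows of E2F4, E2F6, E2F7 or TFDP2, nor in the second window of E2F3, which says nothing of sites elsewhere or of other spellings. In a list of E2F target genes of the G1/S transition, 24 of the 36 genes with a window held the word (66.7%), against 1090 of all 27305 genes (3.99%). A match is a match of letters and not a measured binding site.

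The deposited values are RMA intensities from 5.54 to 32065, used here as log2, and the median of an array lay between 5.06 and 5.15. The study set its limit of noise at 1.5 times the median signal of a spiked-in bacterial control (BioB, 3′ end), which was here an intensity of 385 or 8.59 on the log2 scale. Of the 37 siRNA targets that could be matched to a gene, all 37 had their own mRNA lowest in their own array within the batch, by a median log2 difference of -1.40. Of 7 melanocyte lineage genes measured, SOX10, MITF and S100B were above the limit of noise. The pigment genes PMEL, MLANA, TYR and TYRP1 were below it, as were all measured markers of keratinocytes, fibroblasts and leukocytes. In these whole cultures, fewer cells expressing a gene and less mRNA per cell cannot be told apart. The third untreated array was almost a copy of the third control siRNA array, with 100% of its probe sets within 10%, against at most 62.0% in any other pair. Each siRNA has 1 array, so a difference in a single array has no replicate check and no p-value. It is given as the log2 value less the median of the batch, beside the SD of that probe set over the other siRNA arrays of the batch.

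Most of the siRNAs left the members close to their batch medians. Of the 390 values formed by 10 members and 39 siRNA arrays, 3 lay at least 1.5-fold from the batch median (0.769%, against 0.629% of values over all genes), 2 of them lower and 1 higher. These were E2F7 and E2F8 after MAP2K1 siRNA and E2F7 after CCNA2 siRNA. At 2 SD or more there were 33 values (8.46%, against 7.64% over all genes), 16 higher (3.82% of values over all genes) and 17 lower (also 3.82%), and 19 of the 39 arrays had none. By either measure the share was near that of all genes, so the members were not a group in which large differences were common. The members differed in how far they varied. Over the 39 arrays centred on their batch medians, the SD was 0.30 for both E2F7 and E2F8, above that of 98.2% and 98.0% of all genes. It was 0.10 for E2F6 and 0.11 for E2F4, at percentiles 6.46 and 14.1, and the median over all genes was 0.16.

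**Figure D1:**
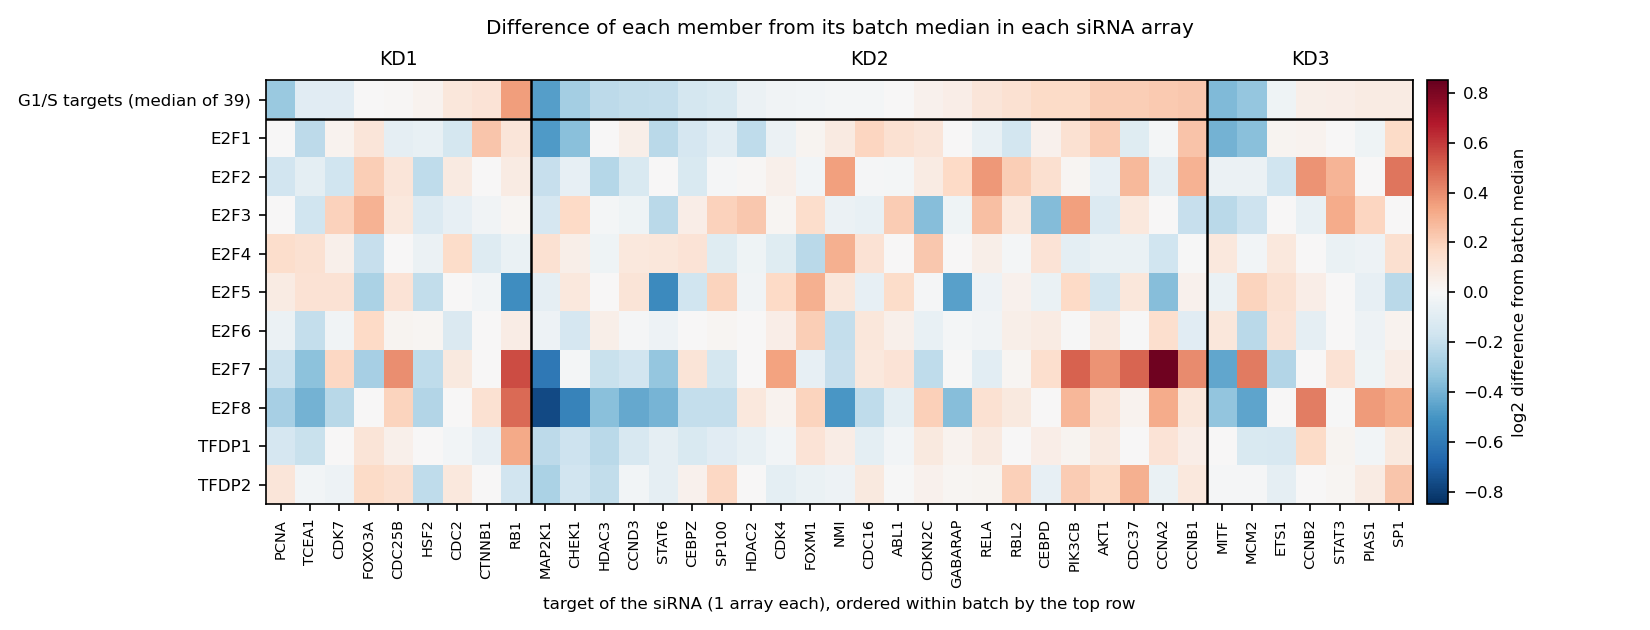
Each column is 1 siRNA array and each row 1 member (main probe set), coloured by its log2 difference from the batch median. The top row is the median of 39 E2F target genes of G1/S. The deepest colours lie in the E2F7 and E2F8 rows, from -0.77 (E2F8, MAP2K1) to 0.83 (E2F7, CCNA2).

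Among the activators, E2F1 was lowest after MAP2K1 siRNA. Its log2 intensity was 7.31 there, against a KD2 batch that ran to 8.04 with a median of 7.79, a difference of -0.48 beside an SD of 0.15. The second E2F1 probe set, 2028_s_at, gave -0.49 in the same array. E2F1 was also low after siRNA against the melanocyte master regulator MITF (-0.40, SD 0.17), MCM2, a subunit of the replicative helicase (-0.36, SD 0.19), and CHEK1, the S-phase checkpoint kinase (-0.36, SD 0.17). The second probe set gave -0.06 after MITF siRNA and 0.00 after both MCM2 and CHEK1 siRNA, so only the MAP2K1 difference was of like size in both. The highest E2F1 differences followed CCNB1 (0.24), CTNNB1 (0.23) and AKT1 siRNA (0.22), of which CTNNB1 passed 2 SD.

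E2F2 showed its largest differences upwards. It was highest after siRNA against the transcription factor SP1 (0.46, SD 0.22), CCNB2 (0.38, SD 0.24) and the NF-kappaB subunit RELA (0.37, SD 0.16), followed by NMI (0.35, SD 0.16). Its lowest values followed HDAC3 (-0.25), HSF2 (-0.21) and MAP2K1 siRNA (-0.20), none of them past 2 SD. Of the 2 dimmer E2F2 probe sets, 207042_at gave 0.36 after NMI siRNA but 0.00 after RELA and -0.02 after SP1 siRNA. E2F3 was lowest after CEBPD (-0.37) and CDKN2C siRNA (-0.36), both just past 2 SD, and then after MITF siRNA (-0.23). It was highest after PIK3CB (0.35), STAT3 (0.32) and FOXO3A siRNA (0.29). Its second probe set, 203692_s_at, was within 0.12 of the batch median in the 4 arrays where the main one passed 2 SD, and over the 39 arrays the Spearman's rho of the pair was -0.04.

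Of the repressors that bind DNA with a TFDP partner, E2F5 had the largest differences, all downwards. It was lowest after siRNA against STAT6, a cytokine-activated transcription factor (-0.54, SD 0.18), then after RB1 (-0.52, SD 0.15) and after GABARAP, an autophagy protein (-0.46, SD 0.19). Its highest differences followed FOXM1 (0.30), MCM2 (0.19) and SP100 siRNA (0.19), none past 2 SD. The other E2F5 probe set, 222051_s_at, had a mean log2 intensity of 3.34, near the floor of the array, and gave -0.20 after RB1 and -0.05 after STAT6 siRNA.

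E2F4 stayed between -0.23, after FOXM1 siRNA, and 0.30, after siRNA against NMI, an interferon-induced protein. The next lowest E2F4 values followed FOXO3A (-0.19) and CCNA2 siRNA (-0.17), and the next highest followed CDKN2C (0.23) and CDC2 siRNA (0.16). E2F6 stayed between -0.23, after MCM2 siRNA, and 0.21, after FOXM1 siRNA. It was next lowest after NMI and TCEA1 (both -0.20) and next highest after FOXO3A (0.17) and CCNA2 siRNA (0.14). These small differences passed 2 SD for E2F6 after MCM2, NMI, TCEA1 and FOXM1 siRNA, where the SD of the other arrays was at most 0.09, and for E2F4 after NMI and SP1 siRNA. FOXM1 siRNA thus went with the lowest E2F4 and the highest E2F5 and E2F6 differences from the batch median of all 39 arrays. Of these main probe sets only that of E2F6 passed 2 SD. The other E2F4 probe set, 202248_at, gave -0.11 there. That of E2F5, 222051_s_at, which is near the floor of the array, gave 0.43 (SD 0.15).

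The atypical repressors E2F7 and E2F8 covered the widest range. E2F8 was lowest after MAP2K1 siRNA, at 6.40 against a KD2 median of 7.17 and a highest value of 7.48, a difference of -0.77 (SD 0.27). The next lowest values followed CHEK1 (-0.57, SD 0.28) and NMI siRNA (-0.49, SD 0.29). It was highest after RB1 siRNA (0.48, SD 0.22), CCNB2 (0.44, SD 0.33) and PIAS1 siRNA (0.36, SD 0.35). The 1 probe set of E2F8 was below the limit of noise in all 39 siRNA arrays. The control siRNA arrays had E2F8 at 6.66, 6.56 and 5.97. Against their mean the difference after MAP2K1 siRNA was 0.0034, and without the third array, a near copy of an untreated one, it was -0.21.

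E2F7 was highest after siRNA against CCNA2, the S-phase and mitotic cyclin. Its log2 intensity was 9.07 there, the highest of the 23 KD2 arrays, against a median of 8.24, a difference of 0.83 (SD 0.28) or 1.77-fold. The second E2F7 probe set, 241725_at, gave -0.05 in the same array. E2F7 was next highest after RB1 (0.56, SD 0.26) and PIK3CB siRNA (0.50, SD 0.31), and 241725_at gave 0.00 after RB1 siRNA. Its lowest values followed MAP2K1 (-0.61, SD 0.29), MITF (-0.44, SD 0.23) and TCEA1 siRNA (-0.35, SD 0.30), and 241725_at was at -0.05 after MAP2K1 siRNA. After MCM2 siRNA both probe sets were higher, by 0.44 in the main one and 0.75 in 241725_at. The pair had a Spearman's rho of 0.13 over the 39 centred arrays, so a difference seen in the main probe set was often not seen in the other. In 11 arrays E2F7 and E2F8 were both higher than the batch median, in 12 both lower, in 10 on opposite sides, and in 6 at least 1 of them was equal to it.

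Of the partners, TFDP1 was highest after RB1 siRNA. It was at 12.11, the highest of the 9 KD1 arrays and of all 45, against a median of 11.79, a difference of 0.32 beside an SD of 0.10. Both other TFDP1 probe sets were higher too, by 0.09 and 0.33. TFDP1 was next highest after CCNB2 (0.16) and CCNA2 siRNA (0.12), and lowest after HDAC3 (-0.23), MAP2K1 (-0.23) and TCEA1 siRNA (-0.19). TFDP2 was highest after CDC37 (0.30), SP1 (0.24) and PIK3CB siRNA (0.21), and lowest after MAP2K1 (-0.27), HSF2 (-0.22) and HDAC3 siRNA (-0.21). The TFDP2 difference after SP1 siRNA was over 5 times the SD of the other 6 KD3 arrays, which was only 0.05, and its 3 other probe sets gave -0.12, 0.00 and 0.12 there.

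Over the 33 values past 2 SD, 27 belonged to members with another probe set. In 18 of these every other probe set lay on the same side of the batch median, in 3 some did and in 6 none did. Among members with 1 other probe set, the values closest in size were those of E2F1 after MAP2K1 siRNA (-0.48 and -0.49).

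Read by siRNA, the arrays with the most members past 2 SD were those of MAP2K1 (5 members), RB1 (4), SP1 (4) and NMI (3). After MAP2K1 siRNA the main probe sets of E2F1, E2F7, E2F8, TFDP1 and TFDP2 were all lower by at least 2 SD. No member was higher by as much, where 6.19% of all genes were lower by 2 SD and 4.41% higher. E2F2 (-0.20), E2F3 (-0.14), E2F5 (-0.08) and E2F6 (-0.04) were also below the median and E2F4 (0.13) above it. The other TFDP2 probe sets did not share a direction in this array (0.01, -0.25 and 0.31), and those of TFDP1 were at -0.06 and -0.47. Past 1.5-fold there were 2 members, E2F7 and E2F8, against 1.03% of all genes lower by that much.

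After RB1 siRNA, E2F7, E2F8 and TFDP1 were higher by at least 2 SD and E2F5 was lower, where 5.27% of all genes were higher and 5.85% lower. The main probe sets of the activators lay close to the median: E2F1 was at 0.10, E2F2 at 0.07 and E2F3 at 0.02, each within 1 SD. The second probe sets of E2F1 and E2F3 were at 0.16 (SD 0.12) and -0.15 (SD 0.12), and the others of E2F2 at 0.00 and -0.09. E2F4 (-0.05) and E2F6 (0.07) were within 1 SD as well, and TFDP2 was at -0.16 (SD 0.12). None of the members reached 1.5-fold, which 0.582% of genes reached upwards and 0.627% downwards.

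After CCNA2 siRNA, E2F7 was the only member whose main probe set passed 2 SD, where 3.85% of all genes were higher by as much. The second E2F7 probe set was at -0.05. E2F8 was at 0.31 (SD 0.29) and E2F5 at -0.36 (SD 0.20). TFDP1 was at 0.12, and its other probe sets 242939_at and 204147_s_at were at 0.45 (SD 0.19) and 0.27 (SD 0.15). Knockdown of the other textbook regulators of the pathway (RBL2, CDK4, CCND3 and CDKN2C) left the main probe sets of all 10 members within 2 SD, with the exception of E2F3 after CDKN2C siRNA (-0.36, SD 0.18). CDKN2C was not among the siRNA targets that could be matched to a gene, so the fall of its own mRNA was not checked here. Of the other probe sets, 203589_s_at of TFDP2 was at -0.61 (SD 0.18) after CDKN2C siRNA, 202248_at of E2F4 at -0.36 (SD 0.12) after CDK4 siRNA and 235582_at of E2F2 at -0.21 (SD 0.08) after RBL2 siRNA. After siRNA against RBL2, the pocket protein that pairs with E2F4 and E2F5, members ran from -0.16 (E2F1) to 0.21 (E2F2), with E2F4 at -0.02 and E2F5 at 0.04. After siRNA against the cyclin D kinase CDK4 they ran from -0.10 (E2F4) to 0.34 (E2F7, SD 0.32), and after siRNA against cyclin D3 (CCND3) from -0.44 (E2F8, SD 0.29) to 0.11 (E2F5).

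**Figure D2:**
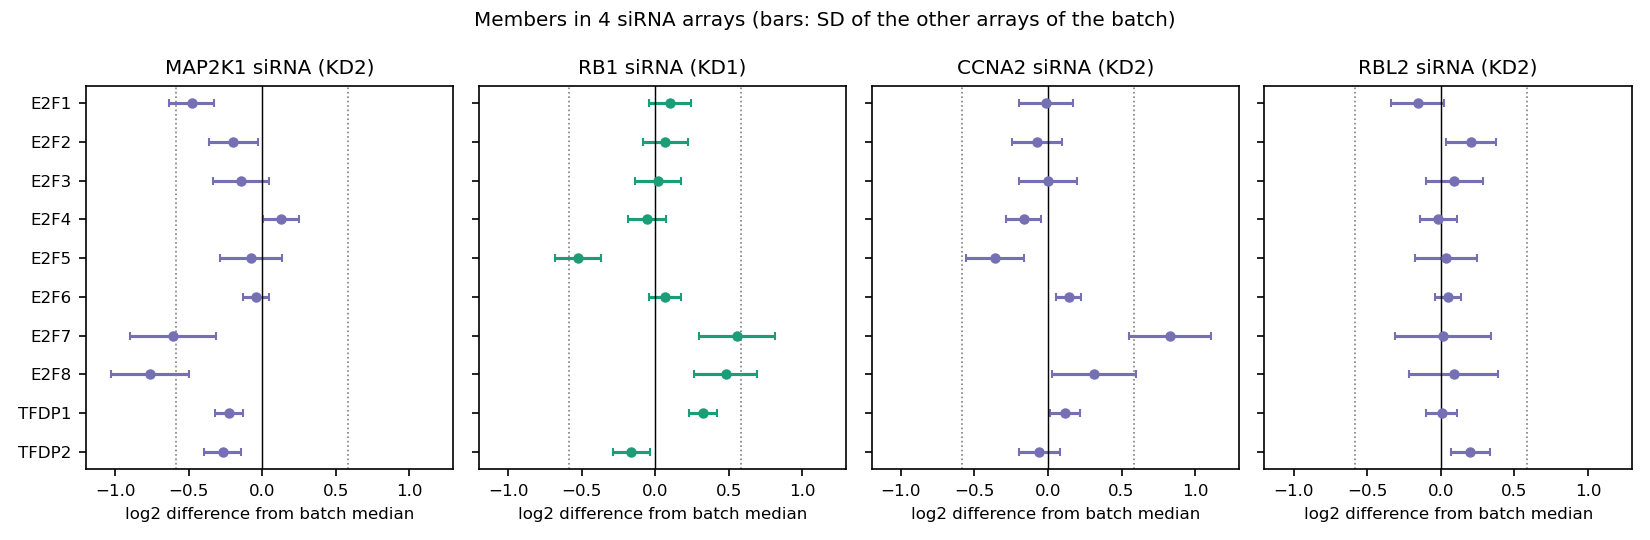
Points are the log2 difference of each member from its batch median in the arrays of MAP2K1, RB1, CCNA2 and RBL2 siRNA (1 array each), bars are the SD of that member over the other siRNA arrays of the batch, and dotted lines mark 1.5-fold. After MAP2K1 siRNA 9 of 10 points lie left of 0, and after RBL2 siRNA every point lies between -0.16 and 0.21.

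The arrays of SP1 and NMI siRNA showed other patterns. After SP1 siRNA 9 of the 10 members were above the KD3 median, with E2F2, E2F4 and TFDP2 past 2 SD, and E2F5 was below it by 0.23 (SD 0.10). Over all genes 5.73% were higher and 6.13% lower by 2 SD in that array. After NMI siRNA E2F2 and E2F4 were higher and E2F6 lower by at least 2 SD, but this array stood far from its batch in general, with 10.2% of all genes higher and 6.97% lower by as much.

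The genes that E2F proteins act on were taken from a list of E2F target genes of G1/S, of which 39 were measured. After RB1 siRNA 37 of the 39 were above the batch median and 2 equal to it, with a median of 0.36 against 0.00 over all genes, of which 45.2% were higher. CDT1, the licensing factor (0.61, SD 0.23), and CCNE2, a cyclin E (0.60, SD 0.35), were past 1.5-fold. After MAP2K1 siRNA all 39 were below the batch median, by a median of -0.46, and 12 of them by at least 1.5-fold. The lowest were the replication factors MCM10 (-0.85), DTL (-0.81), EXO1 (-0.79) and GINS2 (-0.74), and CCNE2 (-0.73). The list was also low after MITF (-0.38), MCM2 (-0.33), PCNA (-0.31) and CHEK1 siRNA (-0.29), and high after CCNB1 (0.23), CCNA2 (0.22) and CDC37 siRNA (0.21). Leaving MCM2 and PCNA out of the list in their own arrays gave -0.32 and -0.30. After RBL2 siRNA its median was 0.13, with 37 genes higher, and after CCND3 siRNA -0.21, with 38 lower. Such one-sided counts were not particular to these siRNAs. After CEBPD siRNA 39 genes were higher (median 0.16) and after PIK3CB siRNA 37 (0.16), and 38 were lower after HDAC3 (-0.22) and 39 after STAT6 siRNA (-0.20).

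Members differed in how they stood beside this list. The Spearman's rho between a member and the median of its 39 target genes, over the 39 centred arrays, was 0.74 for E2F8, 0.69 for TFDP1, 0.59 for both E2F2 and E2F7, 0.51 for E2F1 and 0.39 for TFDP2. It was 0.19 for E2F6, 0.12 for E2F3, -0.27 for E2F5 and -0.32 for E2F4. The points share their normalisation and the arrays of a batch share its median, so these are descriptions only. MCM2 siRNA set members apart by their main probe sets. E2F1 (-0.36) and E2F8 (-0.45) were low there with the target genes, neither of them past 2 SD, and the second E2F1 probe set was at 0.00. E2F7 (0.44) was high and past 2 SD. This was the only array among the 3 lowest of the list with E2F7 above its batch median. After PCNA siRNA, with the list at -0.31, E2F1 was at 0.00 and E2F8 at -0.28 (SD 0.28).

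**Figure D3:**
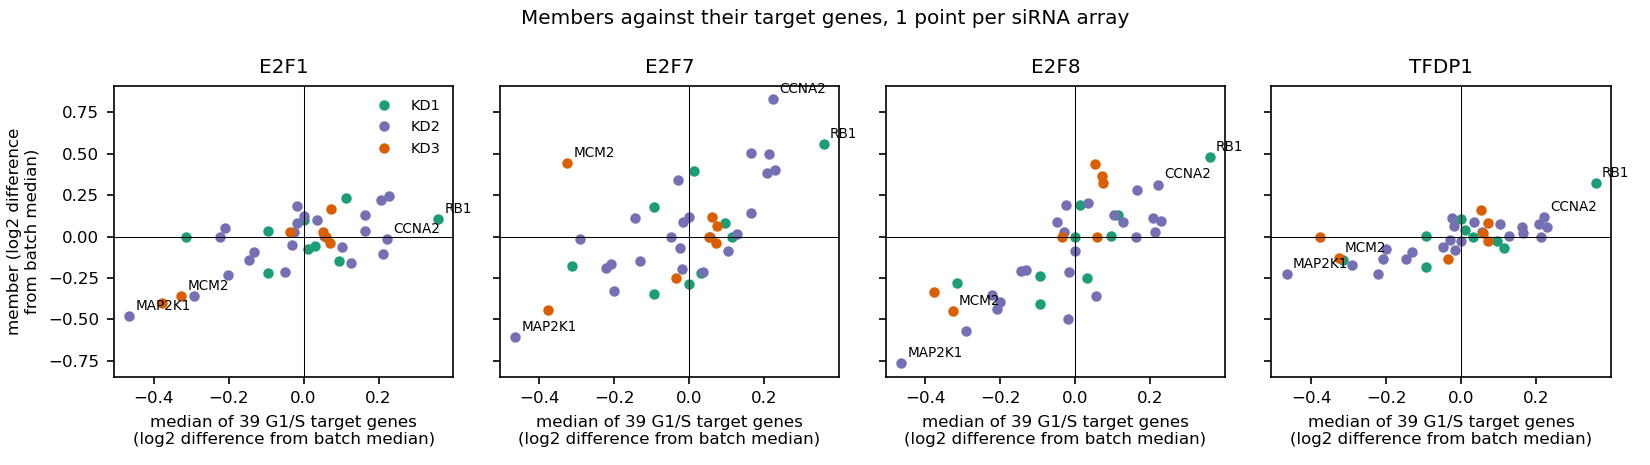
Each point is 1 siRNA array, coloured by batch, with the median of 39 E2F target genes on the x axis and the member on the y axis, both as log2 differences from the batch median. E2F8 and TFDP1 follow the target genes most closely (rho 0.74 and 0.69), and in the E2F7 panel the MCM2 point lies at 0.44 with the target genes at -0.33.

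The other pathway lists lay closer to the batch median in the arrays of RB1 and MAP2K1 siRNA. In the RB1 array the 8 measured genes of the pocket proteins and the MuvB core had a median of -0.07, with RB1 itself at -1.73 (SD 0.22), the 11 G1 cyclins, kinases and inhibitors a median of 0.00, and the 6 partners of E2F6 in its Polycomb complex one of 0.04. In the MAP2K1 array the same 3 lists had medians of -0.02, -0.09 and -0.01. After MITF siRNA, however, all 8 genes of the pocket proteins and MuvB core were below the batch median, by a median of -0.24 and 1 of them by at least 1.5-fold.

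Among the members themselves the highest of the 45 pairwise rho values were those of E2F8 with TFDP1 (0.68) and of E2F2 with TFDP1 (0.64), and the lowest was that of E2F3 with E2F4 (-0.49). Of the 4800 genes above the limit of noise, those with the pattern most like E2F8 were FIGNL1 (0.80), PAXIP1 (0.79) and RBBP7 (0.79), and those most like TFDP1 were PIMREG (0.79), MCM2 (0.77) and DDX11 (0.75). For E2F7 they were KLF10 (0.78), NUP35 (0.73) and KLF4 (0.71), none of them shared with E2F8. E2F2 was nearest to PIMREG (0.75), TPX2 (0.71) and MSH6 (0.71), and E2F1 to GMPS (0.72), UBR7 (0.62) and DRAP1 (0.61). E2F3 was nearest to PAN3 (0.71), USP24 (0.69) and CLPX (0.69), and E2F4 to N4BP1 (0.79), RHOT2 (0.74) and R3HDM4 (0.74). The nearest genes had lower values for E2F5, with PAPOLA (0.60), UBE2H (0.53) and ADA (0.52), for E2F6, with SNW1 (0.63), POLR3B (0.60) and TIMP3 (0.58), and for TFDP2, with FXR1 (0.64), SETD6 (0.64) and MAD2L2 (0.64). All are over the same 39 centred arrays, and were not tested.

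For E2F2, E2F7, E2F8 and TFDP1 the KD3 median differed from both other batch medians by more than any siRNA array did from its own. For E2F1 and E2F5 this held only between KD3 and KD1, and for E2F6 between KD2 and either other batch. In KD2, E2F7 ran from 7.63 to 9.07 with a median of 8.24, and in KD3 from 9.51 to 10.40 with a median of 9.96, so that the batches did not overlap. The KD1 range was 7.77 to 8.68. TFDP1 ran from 11.53 to 11.87 in KD2 (median 11.75), from 11.60 to 12.11 in KD1 (11.79) and from 10.47 to 10.77 in KD3 (10.61), again without overlap of KD3 with either. E2F8 ran from 6.40 to 7.48 in KD2 (7.17), 6.00 to 6.88 in KD1 (6.40) and 5.14 to 6.02 in KD3 (5.59), where KD3 overlapped with KD1 only. E2F2 ran from 6.86 to 7.47 in KD2 (7.10), 7.19 to 7.61 in KD1 (7.40) and 5.94 to 6.56 in KD3 (6.11), with KD3 below both.

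In limma, 8 of the 10 members differed between KD3 and KD2 at an adjusted p under 0.05, 2 higher and 6 lower in KD3, where 41.8% of all 54675 probe sets did. At the further requirement of 1.5-fold there were 4 members, against 11.2% of probe sets. E2F7 was higher in KD3 by 1.64 ± 0.13 (SE, adjusted p = 3.57e-15), and E2F8 (-1.42 ± 0.12), TFDP1 (-1.13 ± 0.05) and E2F2 (-0.92 ± 0.08) were lower. Between KD1 and KD2, 6 members differed (44.5% of probe sets), 3 each way, and 1 of them by 1.5-fold (5.94% of probe sets), E2F8, lower in KD1 by -0.70 ± 0.11 (SE, limma adjusted p = 1.16e-06). Between KD3 and KD1, 7 differed (48.1% of probe sets), 2 higher and 5 lower, and 6 by 1.5-fold (17% of probe sets). These 6 were E2F7 (1.80) and E2F5 (0.69), higher in KD3, and TFDP1 (-1.19), E2F2 (-1.15), E2F8 (-0.73) and E2F1 (-0.61), lower. Each batch holds other siRNAs, so batch and siRNA set cannot be told apart, and in number the calls without a fold limit are to be read against the large share of the whole array. E2F3, E2F4, E2F6 and TFDP2, by their main probe sets, differed by less than 1.5-fold between any 2 batches.

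**Figure D4:**
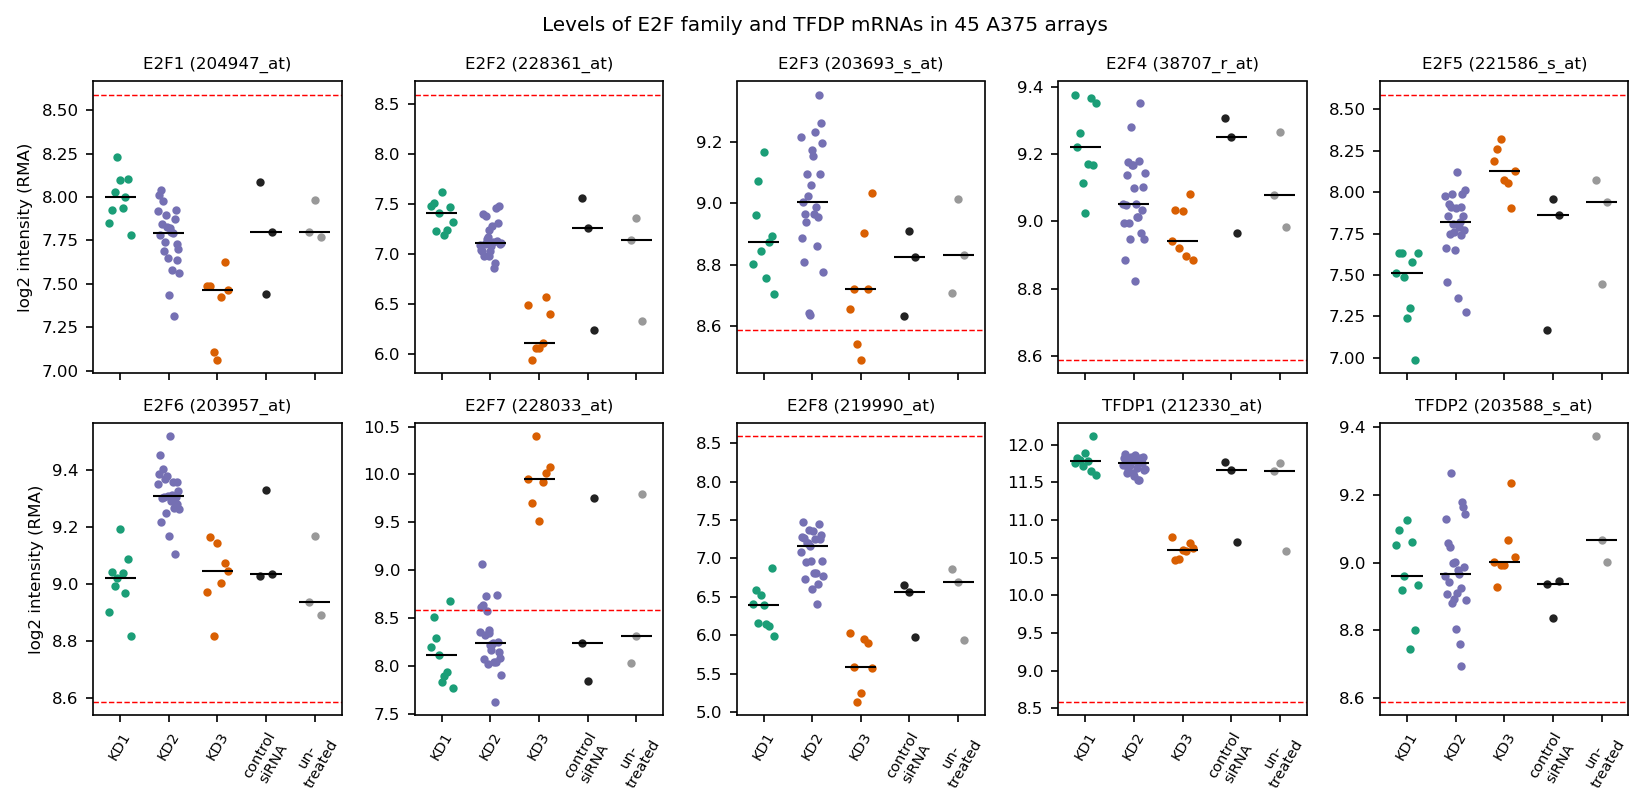
Log2 intensity (y axis, scaled separately in each panel) of the main probe set of each member in the 9 KD1, 23 KD2 and 7 KD3 siRNA arrays and the 3 control siRNA and 3 untreated arrays; points are arrays, black lines group medians and the dashed red line the limit of noise. KD3 stands apart for E2F2, E2F7 and TFDP1, and 1 control siRNA and 1 untreated array lie beside it.

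Control siRNA array 3 and untreated array 3, the near copies, had E2F7 at 9.75 and 9.80, TFDP1 at 10.71 and 10.59, E2F8 at 5.97 and 5.94 and E2F2 at 6.23 and 6.33, all within the KD3 ranges. The other control siRNA arrays had E2F7 at 8.25 and 7.85 and TFDP1 at 11.76 and 11.67, and the other untreated arrays had E2F7 at 8.04 and 8.32 and TFDP1 at 11.65 and 11.76, outside them. With such arrays in both groups, no member was called between control siRNA and untreated in limma (0 of 54675 probe sets called, a share of 0%, with 97 at an unadjusted p under 0.05). The smallest unadjusted p among the members was 0.126, for TFDP2, which was at 8.94, 8.83 and 8.94 with control siRNA and at 9.37, 9.07 and 9.003 in untreated cells, a difference of -0.24 ± 0.14 (SE, limma). With the replicate number as a block no member was called either, and the p of TFDP2 was 0.0568 unadjusted and 0.874 adjusted (limma). The SE was 0.62 for E2F7 and 0.40 for TFDP1 and E2F2 without the block, and 0.14, 0.10 and 0.13 with it. In simulated data of this design, fitted without the block, a log2 change of 1 was added to 200 probe sets and 0 of them were called.

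The probe sets of a member did not always share its batch difference. The second E2F7 probe set was higher in KD3 than in KD2 by 1.83 ± 0.09 (SE), close to the 1.64 of the main one. For TFDP1, 204147_s_at was lower by -0.61 ± 0.06 but 242939_at was higher by 0.27 ± 0.08 (limma adjusted p = 0.00674), against the -1.13 of the main probe set. For TFDP2 the main probe set differed by 0.06 ± 0.06, whereas 226157_at was lower in KD3 by -1.10 ± 0.08 (limma adjusted p = 1.25e-16). For E2F2 the difference was carried by the main probe set, the other 2 being at -0.15 and -0.04 and near the floor of the array. Both E2F1 probe sets were lower in KD3, by -0.38 and -0.50.

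**Figure D5:**
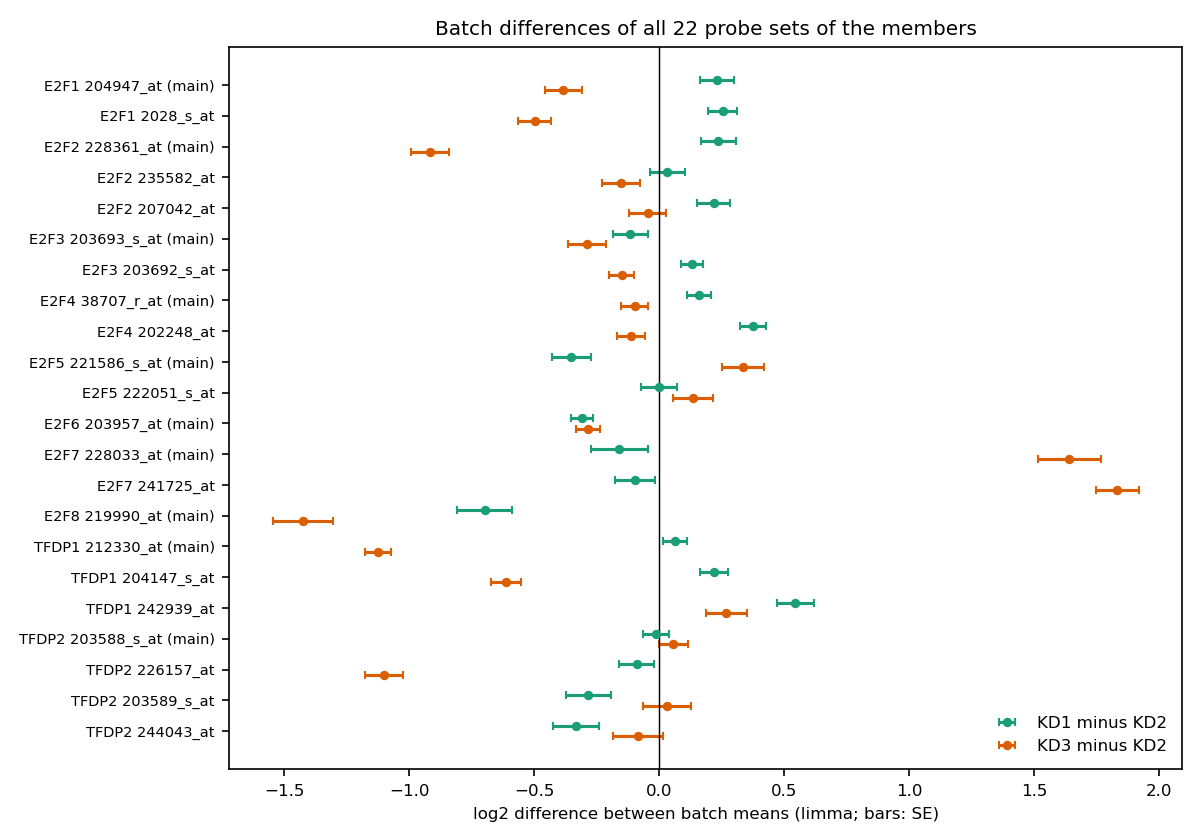
Log2 difference between batch means for all 22 probe sets of the members (limma, 39 siRNA arrays), with KD1 minus KD2 in green, KD3 minus KD2 in orange and bars of 1 SE. In KD3 minus KD2 the 2 E2F7 probe sets lie close together at 1.64 and 1.83, and the TFDP1 and TFDP2 probe sets spread from -1.13 to 0.27 and from -1.10 to 0.06.

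Of the members, E2F3, E2F4, E2F6, TFDP1 and TFDP2 had a main probe set above the limit of noise over the arrays, and E2F1, E2F2, E2F5 and E2F8 were below it in every siRNA array. E2F7 was above it in 7 of 7 KD3 arrays, 5 of 23 KD2 arrays and 1 of 9 KD1 arrays. All 3 values past 1.5-fold thus came from members whose level over the arrays was below the limit. In the CCNA2 array itself, however, E2F7 was above the limit (9.07 against 8.59). Among the 5 members above the limit over the arrays, the largest difference after any siRNA was that of E2F3 after CEBPD siRNA (-0.37).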

How the data were processed

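RNA of A375 cells was hybridised to 45 Affymetrix U133 Plus 2.0 arrays. The authors normalised the arrays with RMA (version not given in the sources used here), and deposited linear-scale intensities. The batch scaling described in the methods of the study is not in them: 59.1% of probe sets had KD3 and KD2 medians over 0.1 log2 apart. Groups come from the sample labels and batches from the siRNA target list of the study. All values were taken to log2 and not normalised again. The platform annotation names 1 gene for 41097 of the 54675 probe sets, several for 1801 and none for 11777. The number of arrays limits the precision.

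Each siRNA array was centred on the median of its batch, with no test, and 1.5-fold or 2 SD of the other arrays of the batch served as thresholds. Batches, and control siRNA against untreated cells, were compared over all probe sets in limma 3.58.1 (R 4.3.3) with Benjamini-Hochberg adjustment, at an adjusted p under 0.05, two-sided. The labels do not say that cultures were independent, so p-values measure the spread between these arrays. On simulated data, where 200 probe sets were shifted by a log2 change of 1, the fit recovered 199, 200 and 200 of them for KD3 against KD2, KD1 against KD2 and KD3 against KD1, with 8, 8 and 2 others called. Deviations from the group mean correlated between control siRNA and untreated arrays that share a number (r of 0.58, 0.67 and 0.89, the last being the near copies). Between arrays 1 and 2 of unlike number r was 0.17 and 0.23, and between array 3 and the others it was -0.57 to -0.64. The near copies enter both group means, so these values are not independent, and the number was taken as a possible block. The comparison was fitted without this block, and with it as an alternative. Python 3.11.15 with numpy 2.4.6 and pandas 2.3.3 was used for the rest.

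The members and gene lists were chosen with earlier results of these data known. All members were named, with the 3 arrays highest and lowest for each, the arrays of RB1, RBL2, CDK4, CCND3, CDKN2C, CCNA2 and MAP2K1 siRNA, the 3 genes most like each member, and up to 5 listed pathway genes past 1.5-fold each way in the RB1 and MAP2K1 arrays. Arrays outside this rule were named after their values were seen. Alternatives varied the reference level, array scaling, probe set, threshold, noise filter, pairing and replicates. Further siRNA targets of the study were not analysed here.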

Additional observations from a re-analysis of the deposited data

How the results depend on the processing

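The count of 3 member values past 1.5-fold depended on the reference and the threshold. It was 50 with the control siRNA mean as the reference and 42 at the lower fold limit tried. It was 0 at 2-fold and 0 among members above the limit of noise. A limit of 2 SD, an alternative chosen after seeing the data, gave 33 (7.64% of values over all genes passed it). The use of KD2 arrays only, also chosen after seeing the data, gave 3. Apart from the 2 SD limit, the share over all genes was not computed at these settings, so these counts cannot be set against it. Against the control siRNA mean the median of the E2F target genes was 0.32 after RBL2, 0.26 after CDKN2C, 0.42 after CCNA2 and -0.30 after MAP2K1 siRNA (batch median: 0.13, 0.04, 0.22 and -0.46). E2F8 after MAP2K1 siRNA turned from -0.77 to 0.0034 against that mean, 0.13 without control siRNA replicate 1 and 0.0855 without replicate 2, but was -0.21 without replicate 3, the near copy. E2F7 after CCNA2 siRNA turned to -0.0462 with probe set 241725_at. When only probe sets above the limit of noise were tested between batches, 5 members remained. Of these, 2 were called between KD1 and KD2, 3 between KD3 and KD2 and 2 between KD3 and KD1. Of all 7613 probe sets tested there, 5425, 5825 and 6046 were called. With all probe sets and a further limit of 1.5-fold, also chosen after seeing the data, 1, 4 and 6 of 10 members were called. The shares of probe sets were 5.94%, 11.2% and 17%. E2F5 between KD1 and KD2 turned to 0.0006 with 222051_s_at, and TFDP1 between KD3 and KD2 to 0.27 with 242939_at. The cause of these changes was not tested.

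Shifting the arrays to a common median, the batch mean and leaving the own array out of the batch median each kept all 114 named single-array values within 1 SD. With the replicate block, 0 members and 0 probe sets were called between control siRNA and untreated (1643 at an unadjusted p under 0.05), the number was 0 to 0 with each replicate left out in turn, and without both near copies it was 0 (1135 unadjusted). In these a lone pair of arrays is assumed to vary like the other group. Against the control siRNA mean, 64 of the 114 values moved by more than 1 SD, E2F7 after CCNA2 siRNA to 0.45 (0.27 without control siRNA replicate 1, 0.07 without replicate 2, but 1.02 without replicate 3). The signal of 5 of 10 members was below the limit of noise.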
